A study of Mus musculus with 374 samples.

Results

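The GATA factors measured here were Gata1, Gata2 and Gata3, the members of this zinc finger transcription factor family that are best known from blood cells. They were chosen as members of this family, with earlier results of these data known, and they are 3 of the 19829 mouse genes in the count table. Gata4, Gata5 and Gata6 were not analysed here. Each of the 3 genes was followed across 5 sorted populations by its summed UMIs (unique molecular identifiers, 1 for each captured transcript), by its CPM (UMIs of the gene per 1000000 UMIs on mouse genes) and by the number of wells with a UMI.

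GATA factors bind the DNA motif after which they are named, and they act in complexes with cofactors such as FOG1 (Zfpm1) and with a bridge of basic helix-loop-helix and LIM domain proteins (Tal1, Tcf3, Lmo2, Ldb1). GATA2 is known for its role in haematopoietic stem and progenitor cells and in mast cells. GATA1 is required for the maturation of red cells and megakaryocytes, and in the erythroid lineage it replaces GATA2 at many shared sites, an exchange known as the GATA switch. GATA3 is required for T cell development in the thymus and is also used by innate lymphoid cells.

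All cells came from 1 C57BL/6 female mouse aged between 10 and 13 weeks and were index sorted, 1 cell to a well, onto 1 plate for CEL-seq2, a protocol that counts the 3′ ends of transcripts. From bone marrow came 96 erythroblasts (Ter119+ CD44+, of middle or high forward scatter, FSC-A), 95 progenitor/stem cells (Lin- Kit+ Sca1+), 96 granulocytes (Mac1+ Gr1+) and 44 B lymphocytes (B220+, FSC-A low), and from the thymus came 43 T lymphocytes (CD3+, FSC-A low). No group was treated. Every population is therefore 1 sample of 1 animal, the T lymphocytes differ from the other populations in organ as well as in lineage, which cannot be told apart, and no test between populations was possible. The intervals given are 95% intervals for counting error only.

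The median well held between 3028 (B lymphocytes) and 7959 (progenitor/stem cells) UMIs on mouse genes, and single wells ranged from 8 to 24033, with 374 distinct barcodes for the 374 wells. Each population was the highest of the 5 in the summed level of its own marker list, and no defining list was absent where its label called for it. The correlation of a well with the summed profiles placed 7 of 374 wells nearest to a population other than their own (2 B lymphocyte wells, 2 granulocyte wells and 1 well in each of the other populations). Together these 7 wells held 2 Gata1 UMIs, 1 in a granulocyte well and 1 in a progenitor/stem cell well, and no UMI of Gata2 or Gata3. Haemoglobin transcripts made up 23.5% of the UMIs of erythroblasts and 1.21% to 2.83% of the UMIs of the other populations, a background that matters for Gata1 and is taken up with it.

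In the GENCODE M21 annotation (GRCm38), Gata1 (ENSMUSG00000031162) lies on the minus strand at chrX:7959260-7978071 and Gata2 (ENSMUSG00000015053) on the plus strand at chr6:88193891-88207032, and neither overlaps another gene. Gata3 (ENSMUSG00000015619) lies on the minus strand at chr2:9857078-9890034, where its exons overlap those of the antisense gene Gm13256 and those of 9230102O04Rik on its own strand. Gm13256 held 1 UMI in all wells, 9230102O04Rik was not analysed here, and the use of strand in counting is not stated, so the Gata3 count is uncertain to that extent. The start sites are shown because the 3 genes differ so clearly in where they were detected. For Gata1 and Gata3 the GENCODE gene begins upstream of the RefSeq start given below, and that upstream end was not searched. RefSeq (GRCm38.p6) gives 1 start for Gata1, 2 starts for Gata2 and 1 start for Gata3, and the 100 bases before each of them read as follows, 5′ to 3′ on the strand of the gene.
Gata1, chrX:7967911-7968010, minus strand: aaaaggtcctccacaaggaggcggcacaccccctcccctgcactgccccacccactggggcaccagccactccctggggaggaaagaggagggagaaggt
Gata2 upstream start, chr6:88193791-88193890, plus strand: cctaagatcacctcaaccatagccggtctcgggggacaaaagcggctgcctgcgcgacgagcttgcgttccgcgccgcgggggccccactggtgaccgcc
Gata2 downstream start, chr6:88198564-88198663, plus strand: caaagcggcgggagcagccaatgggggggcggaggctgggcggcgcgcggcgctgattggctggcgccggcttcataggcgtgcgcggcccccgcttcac
Gata3, chr2:9878601-9878700, minus strand: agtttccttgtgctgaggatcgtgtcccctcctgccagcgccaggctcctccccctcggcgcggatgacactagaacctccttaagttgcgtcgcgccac

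The hexamers that hold the GATA core (AGATAA as well as AGATAG, and likewise TGATAA as well as TGATAG) were searched on both strands in windows from 250 bases before to 50 bases after each start. Of 32851 such windows, 29.8% held at least 1 of them. The Gata1 window and both Gata2 windows held none, which says only that these letters are not in these windows. The Gata3 window held 1, whose first base is base 37 of the transcript, shown in capitals within 20 bases.
Gata3 hexamer: gccgtctTGATAGtttcaga
The G and C content of the windows was 57.3% for Gata1, 69.3% and 73.7% for the upstream and downstream starts of Gata2, and 67.3% for Gata3, against a median of 52.7% over all windows.

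Each GATA gene was highest in a different population. Gata1 was highest in erythroblasts, which held 78.4% of its 259 UMIs. Gata2 was highest in progenitor/stem cells, which held 87.4% of its 135 UMIs. Gata3 was highest in T lymphocytes, which held 70.4% of its 54 UMIs, and most of the rest, 27.8% of all, lay in progenitor/stem cells. Over the whole plate Gata1 was detected in 119 wells, Gata2 in 72 and Gata3 in 40.

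**Figure D1:**
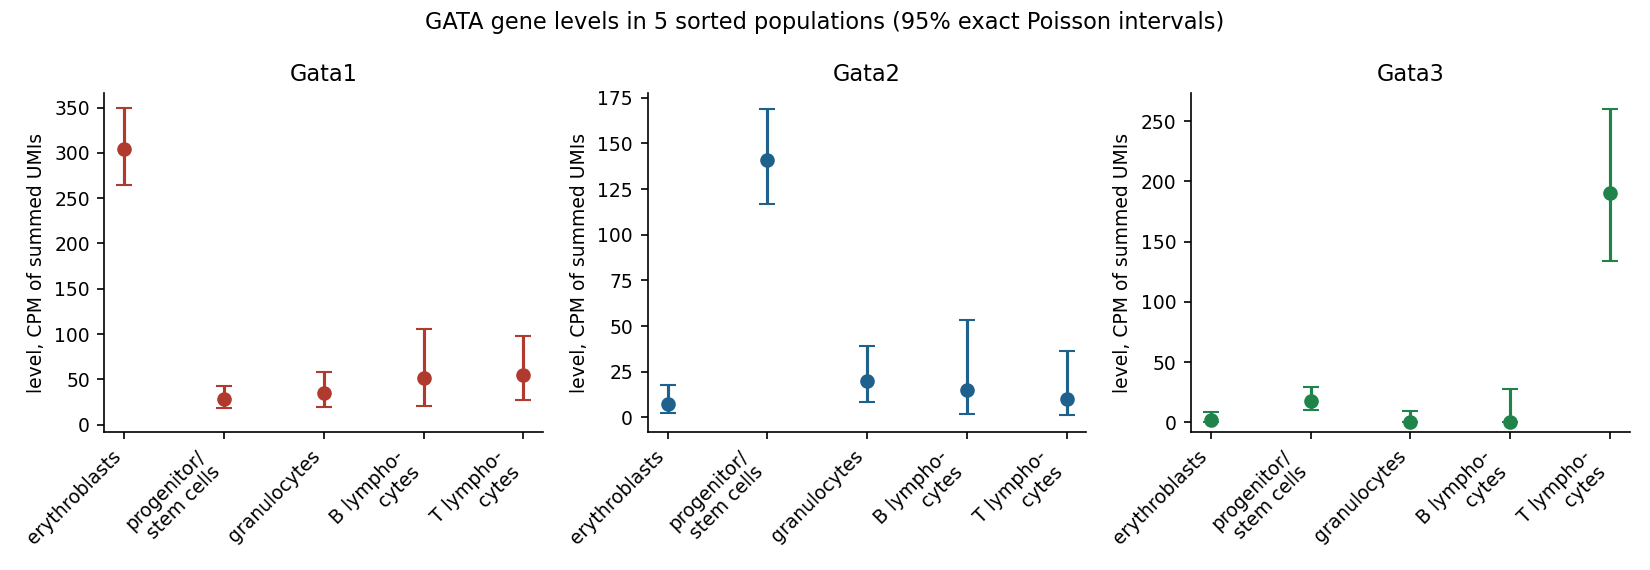
Level of Gata1, Gata2 and Gata3 (y axis, CPM of summed UMIs, a scale of its own for each gene) in the 5 sorted populations (x axis), as points with 95% exact Poisson intervals. Each gene has 1 population whose interval lies above all others: erythroblasts at 304 CPM for Gata1, progenitor/stem cells at 141 CPM for Gata2 and T lymphocytes at 190 CPM for Gata3.

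Gata1, the master regulator of the erythroid lineage, reached a level of 304 CPM in erythroblasts (interval 264 to 349, from 203 UMIs). Of the 96 erythroblast wells, 74 held a UMI (77.1%, exact binomial interval 67.4% to 85.0%). Wells with 1, 2 and 3 UMIs numbered 24, 17 and 12, and a further 21 wells held 4 or more, up to 10 in a single well. Detection was thus broad, and the erythroblast population was the only one in which any well held 4 or more Gata1 UMIs. The median erythroblast well had a Gata1 level of 242 CPM, the lowest wells were at 0 and the highest was at 1385 CPM.

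The erythroblast wells varied more than counting alone gives. The variance of Gata1 UMIs per well was 1.48 times the value for counting error once each well's own depth was taken into account. A Poisson model with the same depth per well gives 79.8 wells with a UMI, against the 74 seen. The 4 plate rows of erythroblasts, which hold cells of the same mouse and are no replicates, had levels of 339, 223, 346 and 292 CPM, and all 4 lay above every row of the other populations.

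In the other populations Gata1 was low but present. The level was 54.9 CPM in T lymphocytes (27.4 to 98.2, 11 UMIs) and 51.5 CPM in B lymphocytes (20.7 to 106, 7 UMIs). It was 34.7 CPM in granulocytes (19.0 to 58.2, 14 UMIs) and 28.7 CPM in progenitor/stem cells (18.4 to 42.8, 24 UMIs). Erythroblasts stood 5.55-fold (3.04 to 11.3) above T lymphocytes, the next population, and 10.6-fold (6.92 to 16.9) above progenitor/stem cells. Below erythroblasts, no neighbouring pair in the order differed beyond counting error, and even T lymphocytes and progenitor/stem cells at its ends did not (log2 ratio 0.93, interval -0.24 to 2.02).

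The share of wells with a Gata1 UMI depended on depth. As deposited it was 20.0% in progenitor/stem cells (19 of 95 wells), 18.6% in T lymphocytes (8 of 43), 13.5% in granulocytes (13 of 96) and 11.4% in B lymphocytes (5 of 44). When every well was thinned at random to 2000 UMIs, leaving out shallower wells (11 B lymphocyte, 10 granulocyte, 1 T lymphocyte and 1 erythroblast well), the share in erythroblasts was 40.0% (30.1% to 50.6%). It was then 16.7% (6.97% to 31.4%) in T lymphocytes, 12.1% (3.40% to 28.2%) in B lymphocytes, 5.81% (1.91% to 13.0%) in granulocytes and 4.21% (1.16% to 10.4%) in progenitor/stem cells. In this single random draw at equal depth, progenitor/stem cells went from the highest to the lowest of these 4 shares, and the intervals of the shares overlapped. The intervals do not cover the spread between draws. A separate draw at 1000 UMIs gave 7.14% in T lymphocytes and 2.11% in progenitor/stem cells. T and B lymphocytes are lineages that should lack Gata1, and a share in granulocytes or progenitor/stem cells above theirs was not detectable at this depth.

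**Figure D2:**
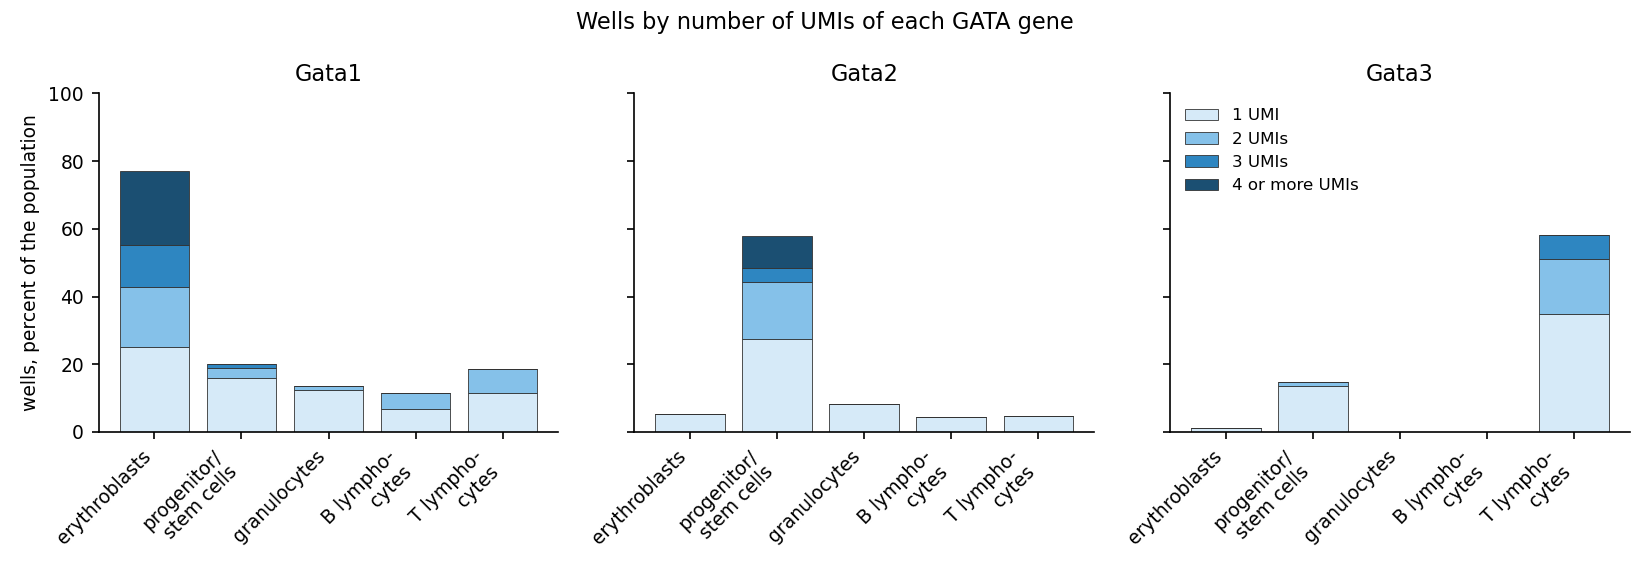
Percent of the wells of each population (y axis) with 1, 2, 3 or at least 4 UMIs of Gata1, Gata2 or Gata3 (stacked shades), as deposited, by sorted population (x axis). Wells with 4 or more UMIs are seen for Gata1 only in erythroblasts (21 wells) and for Gata2 only in progenitor/stem cells (9 wells), and no well held more than 3 UMIs of Gata3.

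Haemoglobin, the most abundant erythroid product, gave a measure of erythroid RNA outside erythroblasts. Gata1 stood at 1.29 UMIs per 1000 haemoglobin UMIs in erythroblasts (interval 1.12 to 1.48, from the Gata1 count alone). The ratio was 2.37 in progenitor/stem cells and 3.10 in T lymphocytes, which is 1.83 times (1.15 to 2.80) and 2.40 times (1.18 to 4.38) the erythroblast ratio. In granulocytes it was 2.25, or 1.74 times the erythroblast ratio (0.934 to 2.99), and in B lymphocytes it was 1.82, or 1.41 times (0.559 to 2.96), and both of these intervals hold 1. By counting error alone, Gata1 UMIs were more frequent per haemoglobin UMI in progenitor/stem cells and T lymphocytes than in erythroblasts. In granulocytes and B lymphocytes no such difference was detectable at this depth. Gata1 varied between erythroblast wells by more than counting error, so these intervals are too narrow. Plate rows of erythroblasts also differed, with 223 CPM of Gata1 and 27.1% haemoglobin in row D against 292 CPM and 18.8% in row F. Within B lymphocytes, plate row B held 6 of the 7 Gata1 UMIs and had a haemoglobin share of 3.98%, against 1 UMI and 1.77% in row A. The part of erythroid RNA in these low Gata1 values was not tested.

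The same comparison can be made with the 11 genes of a list of known GATA1-activated genes, each taken as a percentage of its erythroblast CPM. In progenitor/stem cells Gata1 was at 9.44% (5.91% to 14.5%) of its erythroblast level, above 7 of the 11 genes, whose median was 5.40%. In granulocytes Gata1 was at 11.4% (6.12% to 19.6%), against a median of 6.91%, and in B lymphocytes at 16.9% (6.72% to 35.5%) against 9.28%. In T lymphocytes it was at 18.0% (8.86% to 32.9%) against 7.08%, and in each of these 3 populations it lay above 9 of the 11 genes. Haemoglobin itself was at 5.16%, 6.55%, 12.0% and 7.52% in the same order. In granulocytes and B lymphocytes the Gata1 interval holds both the median and the haemoglobin value, so no difference was detectable there. Klf1, an activator of globin and other erythroid genes, was at 2.03% of its erythroblast level in progenitor/stem cells (1.04% to 3.58%), below the interval of Gata1 there. In granulocytes, B lymphocytes and T lymphocytes the intervals of Klf1 and Gata1 overlapped.

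**Figure D3:**
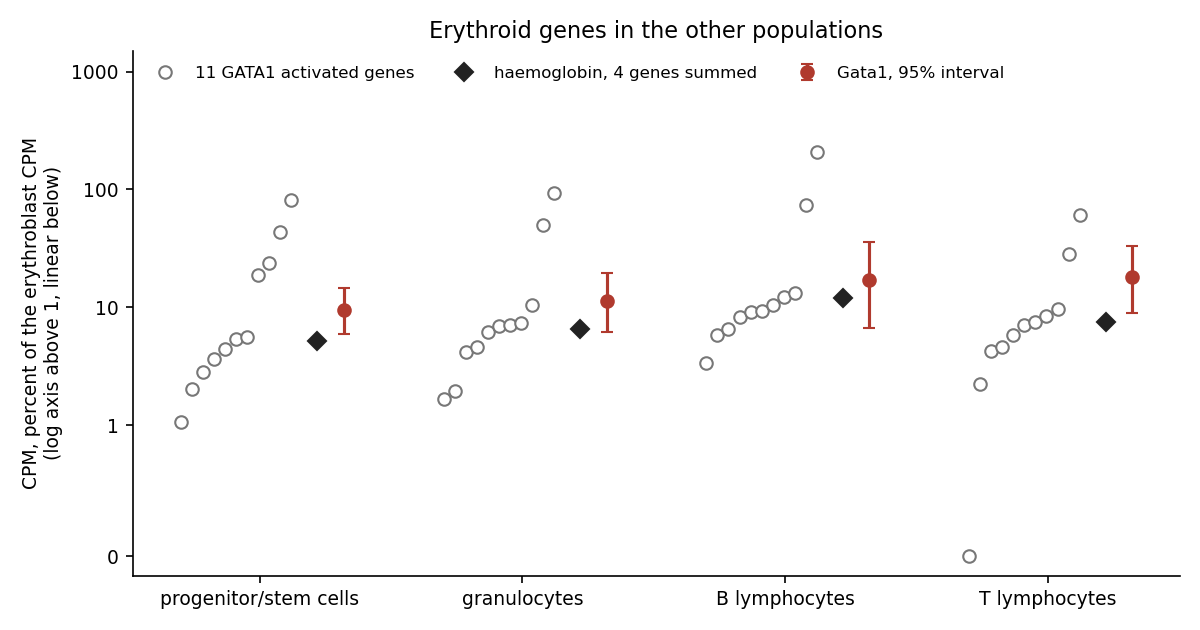
Level of erythroid genes outside erythroblasts, as a percentage of each gene's erythroblast CPM (y axis, logarithmic above 1 and linear below), in the other 4 populations (x axis). Gata1 (filled circles, 95% interval) lies above most of the 11 GATA1-activated genes (open circles) and above the summed haemoglobin genes (diamonds) in each population, for example at 18.0% against 7.52% for haemoglobin in T lymphocytes. In granulocytes and B lymphocytes the Gata1 interval holds the haemoglobin value.

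Markers of megakaryocytes, a lineage that also uses GATA1, were examined beside it. The 5 markers summed to 107 CPM in progenitor/stem cells (85.6 to 131, in 41 wells), to 61.5 CPM in erythroblasts and to between 7.36 and 20.0 CPM in the other populations. The sum in progenitor/stem cells was mostly Itga2b, the integrin subunit CD41, at 64.7 CPM against 10.5 CPM in erythroblasts. Pf4 (platelet factor 4) was at 18.0 CPM in progenitor/stem cells and at 0 in erythroblasts, whereas Gp9 and Vwf were lower in progenitor/stem cells (16.8 and 4.79 CPM) than in erythroblasts (37.5 and 13.5 CPM). Gp1bb was at 2.40 CPM in progenitor/stem cells, at 0 in erythroblasts and at 4.96 CPM in granulocytes. The markers thus did not share 1 order. Their part in the Gata1 values was not tested.

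Gata2, the family member of stem and progenitor cells, reached 141 CPM in progenitor/stem cells (117 to 169, 118 UMIs). Of the 95 wells, 55 held a UMI (57.9%, interval 47.3% to 68.0%), 26 of them 1 UMI, 16 of them 2, 4 of them 3 and 9 of them 4 or more. Gata2 was thus detected in most but not all wells of the population, and a small number of wells held much of it. The 5 wells with the most Gata2 held 32 UMIs, or 27.1% of the total, and the highest held 11.

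Gata2 was the most unevenly spread of the 3 genes in its own population. Its variance per well was 2.44 times the value for counting error at the wells' depths, and 55 wells held a UMI where a Poisson model gives 64.3. The median well had a Gata2 level of 89.1 CPM, the lowest wells were at 0 and the highest was at 898 CPM. The plate rows had levels of 151, 137, 117 and 163 CPM, a narrower range than that of the wells.

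Outside progenitor/stem cells Gata2 was close to the limit of detection. The level was 19.8 CPM in granulocytes (8.56 to 39.1, 8 UMIs), 14.7 CPM in B lymphocytes (1.78 to 53.2, 2 UMIs), 9.98 CPM in T lymphocytes (1.21 to 36.1, 2 UMIs) and 7.50 CPM in erythroblasts (2.44 to 17.5, 5 UMIs). No well of these populations held more than 1 Gata2 UMI. Progenitor/stem cells stood 7.13-fold (3.50 to 16.9) above granulocytes, the next population, and 18.8-fold (7.85 to 59.1) above erythroblasts. Neighbours below the first in the order did not differ beyond counting error.

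At 2000 UMIs per well the share of wells with Gata2 was 25.3% in progenitor/stem cells (16.9% to 35.2%). It was 4.65% in granulocytes (4 of 86 wells) and 3.03% in B lymphocytes (1 of 33). In this single random draw no erythroblast (0 of 95) or T lymphocyte (0 of 42) well held a UMI. A separate draw at 1000 UMIs left one in 1 of 95 erythroblast wells and in 1 of 42 T lymphocyte wells. The counts of 0 therefore do not show that Gata2 was absent there. B lymphocytes should lack Gata2, and with an interval of 0.0767% to 15.8% there and of 1.28% to 11.5% in granulocytes, a difference between these shares was not detectable.

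The granulocyte gate held other values that bear on Gata2. Per 100 UMIs of the 6 progenitor/stem cell markers, Gata2 stood at 4.01 in progenitor/stem cells and at 12.5 in granulocytes, 3.12 times as high (1.32 to 6.35). It stood at 9.52 in B lymphocytes (2.38 times, 0.284 to 8.78) and at 5.56 in erythroblasts (1.39 times, 0.442 to 3.33). In T lymphocytes it was 4.35 (1.08 times, 0.130 to 4.01). These intervals hold 1 and overlap that of granulocytes, so a ratio particular to granulocytes is not shown. Mast cell and basophil markers, of a lineage that uses GATA2, summed to 325 CPM in granulocytes (271 to 385, 57 wells) and to 40.7 CPM in progenitor/stem cells. In granulocytes nearly all of this was Hdc, the enzyme of histamine synthesis, at 312 CPM, and Cpa3, a mast cell protease, was at 0 there while it was at 26.4 CPM in progenitor/stem cells. The part of such cells in the 8 Gata2 UMIs of granulocytes was not tested.

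Between progenitor/stem cells and erythroblasts, the order of Gata1 and Gata2 was opposite. The log2 ratio of erythroblasts over progenitor/stem cells was 3.40 for Gata1 (2.79 to 4.08), and that of progenitor/stem cells over erythroblasts was 4.24 for Gata2 (2.97 to 5.89). With scran size factors in place of UMI totals these log2 ratios were 4.26 and 3.34. For both genes the intervals of the levels in these populations did not overlap. The sorted populations are 2 points of the lineage, and the intermediate progenitors between them were not among the sorted cells.

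Gata3, the T lineage member, reached 190 CPM in T lymphocytes (134 to 260, 38 UMIs). A UMI was found in 25 of 43 wells (58.1%, interval 42.1% to 73.0%), of which 15 held 1, 7 held 2 and 3 held 3. Gata3 was detected in a majority of thymic CD3+ cells, and few molecules were counted in any of them. The median well had a Gata3 level of 161 CPM, the lowest wells were at 0 and the highest was at 901 CPM. The variance per well was 1.15 times the value for counting error, and a Poisson model gives 24.2 wells with a UMI, so the wells were close to what a single shared level would give. Plate rows O and P had levels of 211 and 165 CPM.

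Progenitor/stem cells were the other population with more than a single Gata3 UMI. The level there was 18.0 CPM (10.1 to 29.6, 15 UMIs in 14 of 95 wells), a share of 14.7% (8.30% to 23.5%), with a UMI in all 4 plate rows. Erythroblasts held 1 UMI, and 0 of 96 granulocyte wells and 0 of 44 B lymphocyte wells held any. With 3 wells as the limit that a count of 0 allows, the shares of wells with a UMI could be up to 3.12% and 6.82%, and the exact binomial intervals reach 3.77% and 8.04%. These limits concern wells with a UMI and not cells that express the gene. T lymphocytes stood 10.6-fold (5.67 to 20.7) above progenitor/stem cells, a log2 ratio of 3.40 that was 2.51 when wells were scaled by their ERCC spike-in UMIs. With 3 UMIs per population as the floor, T lymphocytes were at least 25.5-fold higher than granulocytes and at least 8.58-fold higher than B lymphocytes, and the exact intervals of these ratios, which take no floor, begin at 19.8-fold and 6.65-fold.

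Gata3 in progenitor/stem cells exceeded that in erythroblasts and granulocytes. The log2 ratio over erythroblasts was 3.58 (0.88 to 8.98, from 15 and 1 UMIs), and the level was at least 2.42-fold higher than in granulocytes with the floor of 3 UMIs, where the exact interval begins at 1.73-fold. Against B lymphocytes, whose summed depth was the lowest, no difference was detectable. At 2000 UMIs per well the share was 31.0% in T lymphocytes (17.6% to 47.1%), 5.26% in progenitor/stem cells (1.73% to 11.9%), and 0 in the other 3 populations.

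T cell receptor and CD3 transcripts served as the measure of T cell RNA. Per 100 UMIs of Trac, Trbc1, Trbc2, Cd3d, Cd3e and Cd3g, Gata3 stood at 3.31 in T lymphocytes (2.34 to 4.54). In progenitor/stem cells it stood at 19.0 (10.6 to 31.3, 15 Gata3 UMIs against 79), 5.74 times as high (2.93 to 10.7). The Gata3 UMIs of progenitor/stem cells were thus more numerous than the T lymphocyte ratio gives for the T cell transcripts counted there. Granulocytes held 63 T cell receptor and CD3 UMIs and no Gata3 UMI, and the interval of their ratio reaches 1.86 times that of T lymphocytes. The part of T cell RNA in these Gata3 values was not tested. Of the innate lymphoid and NK markers, 3 of 5 were in the table, and they summed to 81.5 CPM in progenitor/stem cells and 120 CPM in T lymphocytes. In T lymphocytes all of this was Nkg7, a granule gene of cytotoxic cells, and Il1rl1 and Klrb1c were at 0. In progenitor/stem cells Nkg7 was at 73.1 CPM, Il1rl1, the IL-33 receptor, at 8.39 CPM and Klrb1c at 0. The sum in erythroblasts was 61.5 CPM, of which Il1rl1 made up 60.0 CPM. The part of such cells was not tested.

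UMIs of more than 1 GATA gene in the same well were found in 4 of the 5 populations, the exception being B lymphocytes. Among the 95 progenitor/stem cell wells, 9 held both Gata1 and Gata2, 10 held Gata1 without Gata2, 46 held Gata2 without Gata1 and 30 held neither. The median depth of these 4 classes was 6522, 8488, 8366 and 7416 UMIs, so the wells with both were not the deepest. Gata2 and Gata3 were found together in 6 progenitor/stem cell wells, and Gata1 and Gata3 in 2. In erythroblasts, 4 of the 5 wells with a Gata2 UMI also held Gata1, as did 74 of all 96 wells. In T lymphocytes, 4 of the 8 wells with Gata1 and both wells with Gata2 held Gata3, among 43 wells of lower median depth. No difference in these shares between populations was tested. Most wells hold few UMIs of a GATA gene, so a well without one is not shown to lack the transcript.

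The fluorescence recorded for each sorted cell allowed the wells of a population to be divided at the median of a channel, independently of the transcripts. For 3 genes and 8 divisions this gave 24 comparisons, of which 21 had UMIs on both sides, and in 4 of these the counting interval did not hold 0. The wells are cells of 1 animal and not replicates, and because Gata1 and Gata2 vary between wells by more than counting error, their intervals are too narrow.

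In erythroblasts, Gata1 was at 341 CPM in the 48 wells with CD44 above the median and at 248 CPM in the 48 wells below it, a log2 ratio of 0.46 (0.02 to 0.91). CD44 is an adhesion receptor that declines as erythroblasts mature. The wells with high CD44 were also deeper, with a median of 7756 against 5334 UMIs, and 41 of them held a Gata1 UMI against 33. Without the well with the most Gata1, the log2 ratio was 0.41 (-0.03 to 0.86), which holds 0. For Ter119, a late erythroid surface antigen, the levels were 269 and 330 CPM above and below the median (log2 ratio -0.29, interval -0.73 to 0.13), and for FSC-A, a measure of cell size, they were 306 and 303 CPM (0.01, interval -0.40 to 0.43).

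In progenitor/stem cells, Gata2 was lower in the wells of larger cells. It was at 101 CPM in the 45 wells with FSC-A above the median and at 183 CPM in the other 50 wells, a log2 ratio of -0.85 (-1.43 to -0.29), although the larger cells had more UMIs (median 8779 against 7247). It was also lower with high Sca-1, at 112 against 168 CPM (-0.59, interval -1.16 to -0.03). For c-Kit, the stem cell factor receptor, the levels were 162 and 121 CPM above and below the median, with an interval of the log2 ratio that holds 0 (0.41, interval -0.14 to 0.97). Leaving out the well with 11 Gata2 UMIs gave -0.67 (-1.26 to -0.09) for FSC-A and -0.40 (-0.99 to 0.18) for Sca-1, so the Sca-1 interval then held 0. Gata1 and Gata3 in the same wells gave intervals that hold 0 in all 3 channels, the widest contrast being Gata3 by Sca-1 at 25.4 against 11.3 CPM (1.16, interval -0.52 to 3.06).

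In T lymphocytes, Gata3 was higher in the wells of larger cells. It was at 259 CPM in the 21 wells with FSC-A above the median and at 114 CPM in the other 22 wells (log2 ratio 1.18, interval 0.13 to 2.34), although all cells came from an FSC-A low gate. By CD3 the levels were 243 and 142 CPM (0.78, interval -0.22 to 1.82). Without the well with the most Gata3 the FSC-A ratio was 1.06 (-0.02 to 2.24), which holds 0.

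**Figure D4:**
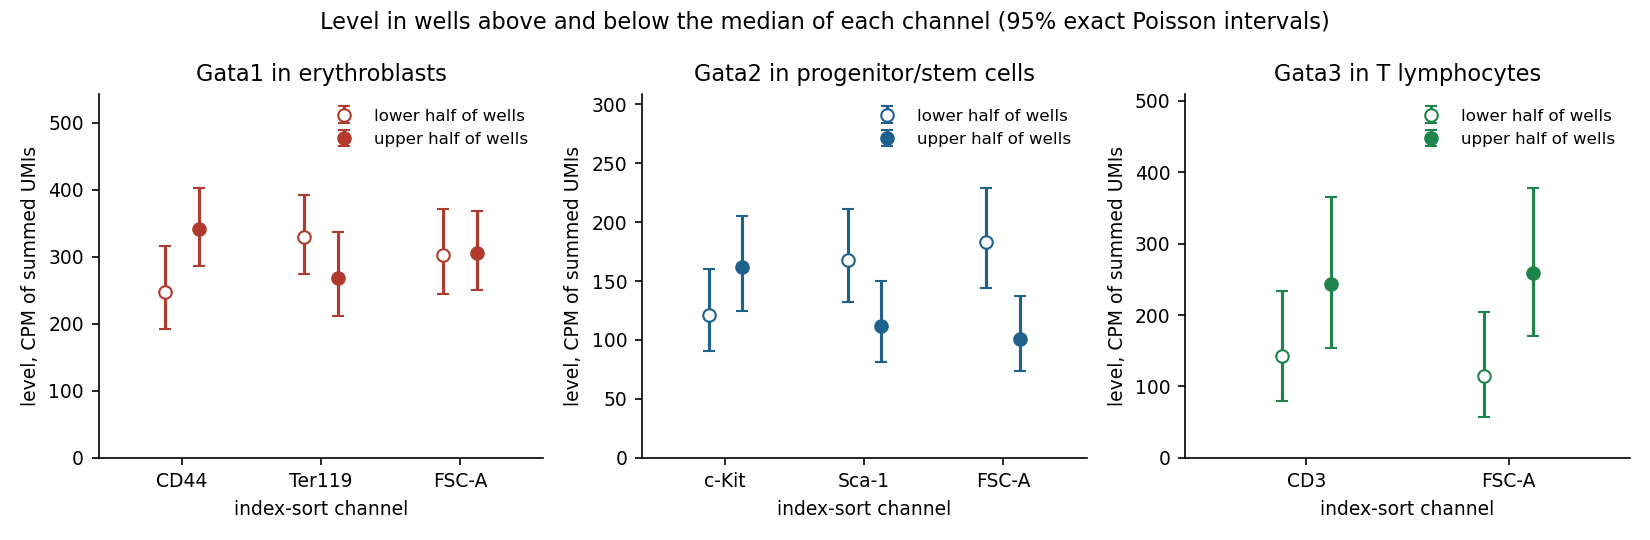
Level of each GATA gene in its own population (y axis, CPM of summed UMIs, with 95% exact Poisson intervals) in wells below (open) and above (filled) the median of each index-sort channel (x axis). Gata2 by FSC-A shows the clearest separation, 183 CPM below the median against 101 CPM above it, while Gata1 by FSC-A is level at 303 and 306 CPM.

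Lists of GATA partner genes, GATA1-activated genes and genes associated with GATA2 or GATA3 were examined. They were set beside the same counts over all 6317 genes with at least 50 UMIs. The lists were chosen with earlier results of these data known, so their counts are description only. A gene was called for a population if its CPM was highest there and at least 2-fold above the next population, with sums under 3 UMIs set to 3. The shares called over all genes were 8.61% for erythroblasts, 4.69% for progenitor/stem cells, 5.81% for granulocytes, 1.98% for B lymphocytes and 2.98% for T lymphocytes. All 3 GATA genes met this rule in their own population. Gata1 was 5.55-fold above the next population and ranked 177 by that fold among the 1182 genes highest in erythroblasts, Gata2 was 6.40-fold above B lymphocytes at their floor and ranked 18 among 2017, and Gata3 was 8.58-fold above B lymphocytes at their floor and ranked 32 among 1320.

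The 11 GATA1-activated genes were mostly erythroblast genes. Of these, 10 were highest in erythroblasts, against 18.7% of all genes, and 8 were called there, against 8.61%. The median log2 ratio over the highest other population was 3.05, against -1.29 over all genes. Of the called genes, Hba-a1, Hbb-bs, Alas2 and Slc4a1 are among the markers of this population, so their place repeats the marker result. Slc4a1, the band 3 anion exchanger, was at 4285 CPM in erythroblasts and at 398 CPM in B lymphocytes, the next population. Alas2, the first enzyme of haem synthesis in red cells, was at 1864 and 180 CPM (next in T lymphocytes), and Klf1 at 708 and 58.9 CPM (B lymphocytes). The globin genes Hbb-bs and Hba-a1, which have near-identical copies, were 8.26-fold and 7.59-fold above B lymphocytes. The 3 exceptions were named after their values were seen. Nfe2, a leucine zipper factor, was at 217 CPM in erythroblasts, 203 CPM in granulocytes and 176 CPM in progenitor/stem cells. The cofactor Zfpm1 was at 70.5 CPM in erythroblasts and 51.5 CPM in B lymphocytes. The survival gene Bcl2l1 was highest in B lymphocytes (103 against 49.5 CPM in erythroblasts).

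The 11 GATA2-associated genes were divided between populations. Of the 9 with enough UMIs, 6 were highest in progenitor/stem cells, against 31.9% of all genes. Of the same 9 genes, 2 were called there, against 4.69% of all genes, with a median log2 ratio of 0.48 against -0.40. The called genes were Kit at 677 CPM, 17.0-fold above T lymphocytes, and Cd34 at 520 CPM, 23.5-fold above B lymphocytes at their floor. Kit and Cd34 are among the markers of this population and Kit was part of its gate. Several transcription factors of the list were also found in other populations. Lmo2 was at 956 CPM in progenitor/stem cells and 517 CPM in erythroblasts, Lyl1 at 149 and 112 CPM, and Runx1 at 186 CPM against 125 CPM in T lymphocytes. Spi1 (PU.1), the myeloid master factor, was highest in granulocytes at 714 CPM, against 177 CPM in progenitor/stem cells. The transcription factors Erg and Meis1, with 42 and 45 UMIs, were under the minimum of 50, and their levels in progenitor/stem cells were 44.3 and 52.7 CPM. Elsewhere Erg was at 9.91 CPM or lower, and Meis1 held 1 UMI in erythroblasts and none in the other populations.

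Of the 10 tested genes of the 12 associated with GATA3, 8 were highest in T lymphocytes, against 20.9% of all genes. Of the same 10 genes, 7 were called there, against 2.98% of all genes, with a median log2 ratio of 4.06 against -0.68. Trac, which encodes the constant part of the receptor alpha chain, was at 1322 CPM and 59.3-fold above granulocytes. Tcf7 (TCF-1) was at 1282 CPM and Bcl11b at 1018 CPM, both T lineage commitment factors, and Cd3g was at 579 CPM. Several of these genes define the gated cells themselves, so their place is set by the sort. Zbtb7b (ThPOK), the factor of helper T cells, was nearly level between T lymphocytes (130 CPM) and granulocytes (126 CPM). Il7r was higher in B lymphocytes (376 against 245 CPM), and Rag1, the recombinase named after its values were seen, was at 655 CPM in B lymphocytes and at 0 in T lymphocytes.

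The partner genes did not share 1 population. Of 13 partners, 11 had enough UMIs, and 2 were highest in erythroblasts, 4 in progenitor/stem cells, 2 in granulocytes, 2 in B lymphocytes and 1 in T lymphocytes. Over all genes, 18.7%, 31.9%, 14.1%, 14.3% and 20.9% were highest in these populations, in the same order. The spread of the partners was thus close to that of all genes. Among the partners, 1 was called in each of the first 4 populations and none in T lymphocytes, beside the low shares called over all genes given above. Tal1, the haematopoietic helix-loop-helix factor, was called in erythroblasts at 210 CPM, 3.25-fold above progenitor/stem cells. Cbfa2t3 (ETO2), a corepressor of GATA1 complexes, was called in progenitor/stem cells at 458 CPM, 2.14-fold above B lymphocytes. Spi1 was called in granulocytes, and Tcf3 (E2A) in B lymphocytes at 501 CPM. Ldb1, the adaptor that holds the complex together, was at 264 CPM in T lymphocytes, 183 CPM in progenitor/stem cells and 81.0 CPM in erythroblasts. Zfpm2 was not analysed here.

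**Figure D5:**
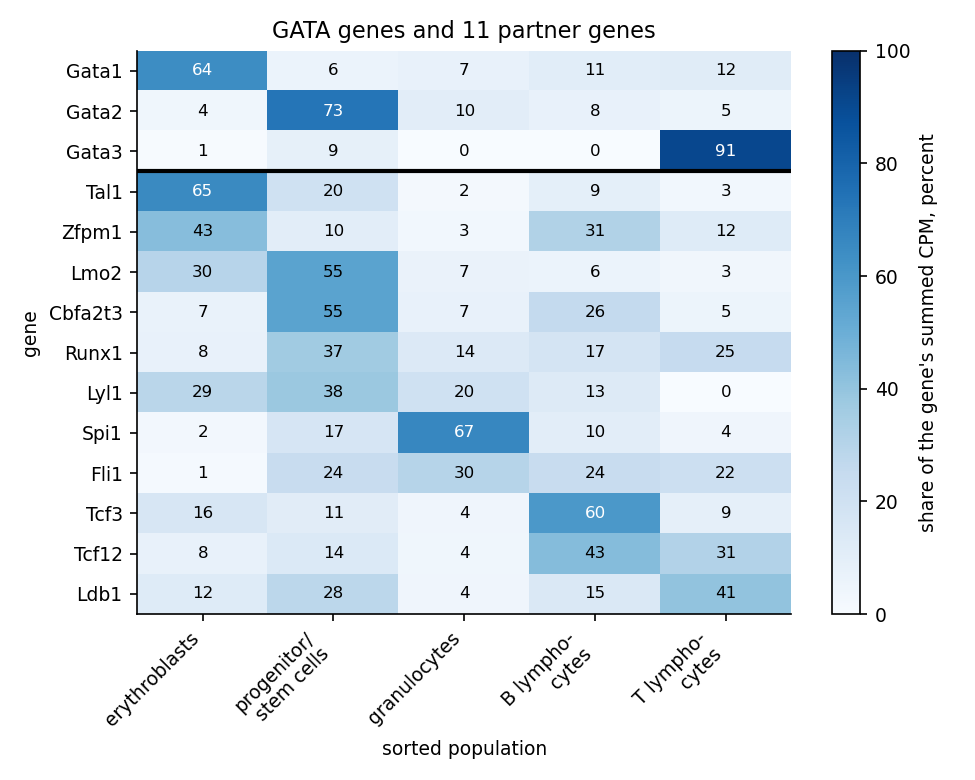
Share of each gene's CPM summed over the 5 populations (colour and printed value, percent) for the 3 GATA genes (above the line) and 11 partner genes (below it), by sorted population (columns). Gata3 is the most concentrated of the GATA genes, with 90.7% in T lymphocytes, against 73.1% of Gata2 in progenitor/stem cells and 64.2% of Gata1 in erythroblasts, and the partner genes are spread over all 5 columns.

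The genes whose shares over the 5 populations were nearest to each GATA gene were found by the total absolute difference of the shares, where 0 is the same profile. They describe likeness over 5 points, with no test. Nearest to Gata1 were Natd1 (0.0482), Gch1 (0.0593), Ackr1 (0.0688), Lpcat1 (0.0720) and Josd2 (0.0724). Gch1, GTP cyclohydrolase, had a level of 343 CPM in erythroblasts and 33.5 CPM in progenitor/stem cells, and Ackr1, the Duffy chemokine receptor of red cells, was at 159 and 14.4 CPM. Nearest to Gata2 were Bahcc1 (0.0767), Sh2d5 (0.103), 4931406C07Rik (0.103), Slfn9 (0.105) and Dntt (0.106). Dntt, the terminal transferase of early lymphoid progenitors, was at 389 CPM in progenitor/stem cells and at no more than 54.9 CPM elsewhere. Nearest to Gata3 were Itm2a (0.0500), Inpp4b (0.0673), Lat (0.0730), Gbp4 (0.0821) and Thy1 (0.0975). Lat, an adaptor of T cell receptor signalling, was at 768 CPM in T lymphocytes and 73.1 CPM in progenitor/stem cells, and Thy1, a surface antigen of T cells, was at 674 and 28.7 CPM.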

How the data were processed

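The table deposited by the authors holds raw UMI counts (whole numbers) of each gene in each well. As described for *scPipe*, reads were aligned, assigned to exons, demultiplexed by designed barcodes and collapsed to UMIs. The build, annotation and strand setting of that counting were not stated. Wells in the column names gave the samples, and 9 columns without a matching sample were left out. Symbols and coordinates came from GENCODE M21.

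Counts were summed per population (44 to 96 wells, 135808 to 834812 UMIs on mouse genes) and scaled to CPM without the ERCC spike-in. Intervals (95%) were exact Poisson for sums, exact binomial (Clopper-Pearson) for shares and exact conditional binomial for ratios. With 1 mouse there was no test. Wells were thinned to 2000 UMIs in a single random draw with a fixed seed, and the intervals do not cover the spread between draws. The steps were tested on simulated data.

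The GATA genes, up to 6 members with the most UMIs of each list, the genes that form counts of 5 or fewer, and the 5 nearest profiles were named. The members and lists were chosen with earlier results of these data known, and 2 genes of the lists are not reported here. Alternatives were other scalings (among them scran 1.30.0 in R 4.3.3), left-out wells, a thinning depth of 1000 UMIs, a minimum of 20 UMIs and a fold of 4. Python 3.11.15, numpy 2.4.6, pandas 2.3.3, scipy 1.17.1 and matplotlib 3.10.9 were used.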

Additional observations from a re-analysis of the deposited data

How the results depend on the processing

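Each of the 3 ratios between populations kept its direction under all 7 alternatives. The log2 ratio of Gata1 (erythroblasts over progenitor/stem cells) was 3.40 and ranged from 3.09 to 4.26, with 4.26 under scran size factors outside its counting interval, and the cause was not tested. That of Gata2 was 4.24 and ranged from 3.34 to 4.41, and that of Gata3 (T lymphocytes over progenitor/stem cells) was 3.40 and ranged from 2.51 to 3.56. With wells thinned to 1000 in place of 2000 UMIs, and so fewer UMIs per well, the shares with a UMI were 24.2% for Gata1 in erythroblasts, 14.7% for Gata2 in progenitor/stem cells and 11.9% for Gata3 in T lymphocytes. With a minimum of 20 UMIs, and so more genes tested, 4 of 11 GATA2-associated genes and 2 of 12 partners were called in progenitor/stem cells. Of all genes, 342 of 9512 were called there. With a fold of 4, no partner of the 11 tested was called there, against 48 of all 6317 genes. The calls of the other lists in their own population numbered 8 and 7 under both. Over all genes, the share called in progenitor/stem cells was lower under both settings than under the main ones, as was that in erythroblasts. In T lymphocytes it was higher with the lower minimum and lower with the higher fold. With the higher fold few of all genes were called in progenitor/stem cells, so the absence of a partner there does not set the partners apart. Chosen after seeing the data, scaling by ERCC UMIs gave log2 ratios of 1.04 by CD44 and -0.75 by Ter119 for Gata1 in erythroblasts, beyond their counting intervals, while the 7 divisions tried kept their direction. Depth limits Gata2 and Gata3 outside their own populations, where sums of 0 to 15 UMIs decide. No paired analysis was possible because each population is 1 sample of 1 mouse and the replicate numbers only name wells.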
